A study of Mus musculus with 40 samples.

Results

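The genes examined here are the osteoblast transcription factors Runx2, Sp7, Dlx3, Dlx5, Dlx6, Msx2 and Atf4, 7 genes chosen by name among the 48733 genes of the full count table, of which 6 are among the 21204 genes of the filtered table. Msx2 is the member outside the filtered table, and its reads were taken from the full table by its gene identifier. They were followed by bulk RNAseq in rib tissue of wild-type mice of 2 ages, immature mice of 7 weeks and mature mice of more than 10 months. According to the methods of the study, the mice were female C57BL/6 animals in which a 3 mm piece of rib was resected. Each age was sampled at baseline (BL) and on days 0, 2, 5 and 14 counted from the resection (dpr), which gives 10 groups. At baseline the labels describe a composite of bone, bone marrow and intercostal muscle, and at the later stages a bone callus, so the kind of tissue and the stage cannot be told apart between BL and the later stages. Each group holds 4 libraries except mature 5dpr, where replicate 2 was not analysed here and n = 3.

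Runx2 is the transcription factor required for commitment to the osteoblast lineage, and Sp7 (osterix) is a zinc finger factor required downstream of it. Dlx3, Dlx5 and Dlx6 are homeodomain factors of the distal-less family that respond to bone morphogenetic protein signals and act on bone matrix genes, and Dlx5 and Dlx6 lie next to each other in the genome. Msx2 is a homeodomain factor best known in the skull and in early osteoprogenitors, and Atf4 is a leucine zipper factor of the amino acid and endoplasmic reticulum stress response that is also needed by mature osteoblasts. Most cells express Atf4, whereas the other members mark few cell types.

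In GRCm38, Runx2 lies on the minus strand at chr17:44495987-44814797 and Sp7 on the minus strand at chr15:102356606-102367182. Dlx3 lies on the plus strand at chr11:95120119-95125296. Dlx6 (chr6:6863334-6868568, plus strand) and Dlx5 (chr6:6877805-6882085, minus strand) are neighbours. Msx2 lies on the minus strand at chr13:53466884-53473074 and Atf4 on the plus strand at chr15:80255184-80257541. The antisense RNA gene Dlx6os1 (chr6:6820189-6871592, minus strand) spans all of Dlx6, but none of its annotated exon bases lies inside Dlx6. The opposite-strand gene Supt3 runs over the 5′ part of Runx2. The homeodomain members are paralogs, so the coding bases around their most conserved DNA-contacting helix are shown, because reads of near-identical copies could be assigned to the wrong gene. Each stretch has 60 bases, and capitals mark the 34 bases that are the same in all 4 genes:
Dlx3: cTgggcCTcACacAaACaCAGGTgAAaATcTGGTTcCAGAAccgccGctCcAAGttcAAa
Dlx5: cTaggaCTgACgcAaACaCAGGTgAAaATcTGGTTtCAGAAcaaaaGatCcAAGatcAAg
Dlx6: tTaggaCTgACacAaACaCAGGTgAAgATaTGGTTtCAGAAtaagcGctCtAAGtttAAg
Msx2: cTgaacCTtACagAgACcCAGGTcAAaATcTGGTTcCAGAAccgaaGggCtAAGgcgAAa
These are exonic coding bases of the GENCODE transcripts. In Msx2 they lie in exon 2 of 2 at chr13:53468379-53468438. In the Dlx genes they begin in exon 2 and end in exon 3 of 3, at chr11:95121878-95123447 for Dlx3, chr6:6878450-6879546 for Dlx5 and chr6:6865251-6867079 for Dlx6. Dlx5 and Dlx6 were the most alike, with 49 of the 60 bases identical, and Dlx6 and Msx2 the least alike, with 36. The longest identical run between the transcripts of any pair was 44 bases, which is shorter than the reads of the study.

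Total counts per library ran from 6057756 to 21537070 reads, with a median of 9087417. Markers of osteoblasts (10 of 10 tested) and of skeletal muscle (20 of 20) were above 0 in all 10 groups, and markers of epidermis and hair were low, with summed values of at most 57.5 CPM, the reads of a gene scaled to the reads of its library. Replicate 3 of the mature 2dpr group stood apart: reads were found for 14380 genes in it, against 20768 to 25778 in the others, and it held 0 reads of Dlx3, Dlx5 and Dlx6. Replicate 3 of the immature 0dpr group had the lowest osteoblast marker sum of its group (4268 CPM, against 16627 to 21295) and the highest skeletal muscle sum (229208 CPM). Changes to and from 0dpr and 2dpr and age differences at these stages are also given without the library concerned.

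Runx2, Sp7, Dlx3, Dlx5 and Dlx6 followed a common course in both ages, with high levels at BL, the lowest mean at 2dpr, and higher values again at 14dpr. Atf4 stayed between 124 and 175 CPM in every library, and Msx2 was close to absent. Levels are CPM scaled with TMM factors, which correct for differences in library composition. In bulk tissue, fewer cells of a type and less RNA per cell cannot be told apart. The course test asks whether any stage differs within an age, and it was made with edgeR's quasi-likelihood test with Benjamini-Hochberg adjustment over the 21204 genes at 0.05, which is the test behind every adjusted p given here. It called 5 of the 7 members in immature mice and the same 5 in mature mice, where 54.3% and 63% of all genes were called. The adjusted p-values in immature mice were 0.0404 for Runx2, 0.00216 for Sp7, 0.000519 for Dlx3, 0.00382 for Dlx5 and 0.0137 for Dlx6. In mature mice they were 7.72e-05, 5.39e-05, 1.72e-05, 1.1e-06 and 1.14e-05 in the same order. Atf4 was not called, with adjusted p = 0.582 in immature and 0.347 in mature mice. DESeq2 called the same 5 in each age. The count in immature mice was 4 in 12 of the 39 fits that left out 1 library, namely each immature BL and each immature 2dpr library, immature 0dpr replicate 4, immature 5dpr replicate 4 and immature 14dpr replicates 2 and 4. Tested on the immature libraries alone, Runx2 was the member lost (adjusted p = 0.0666).

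**Figure D1:**
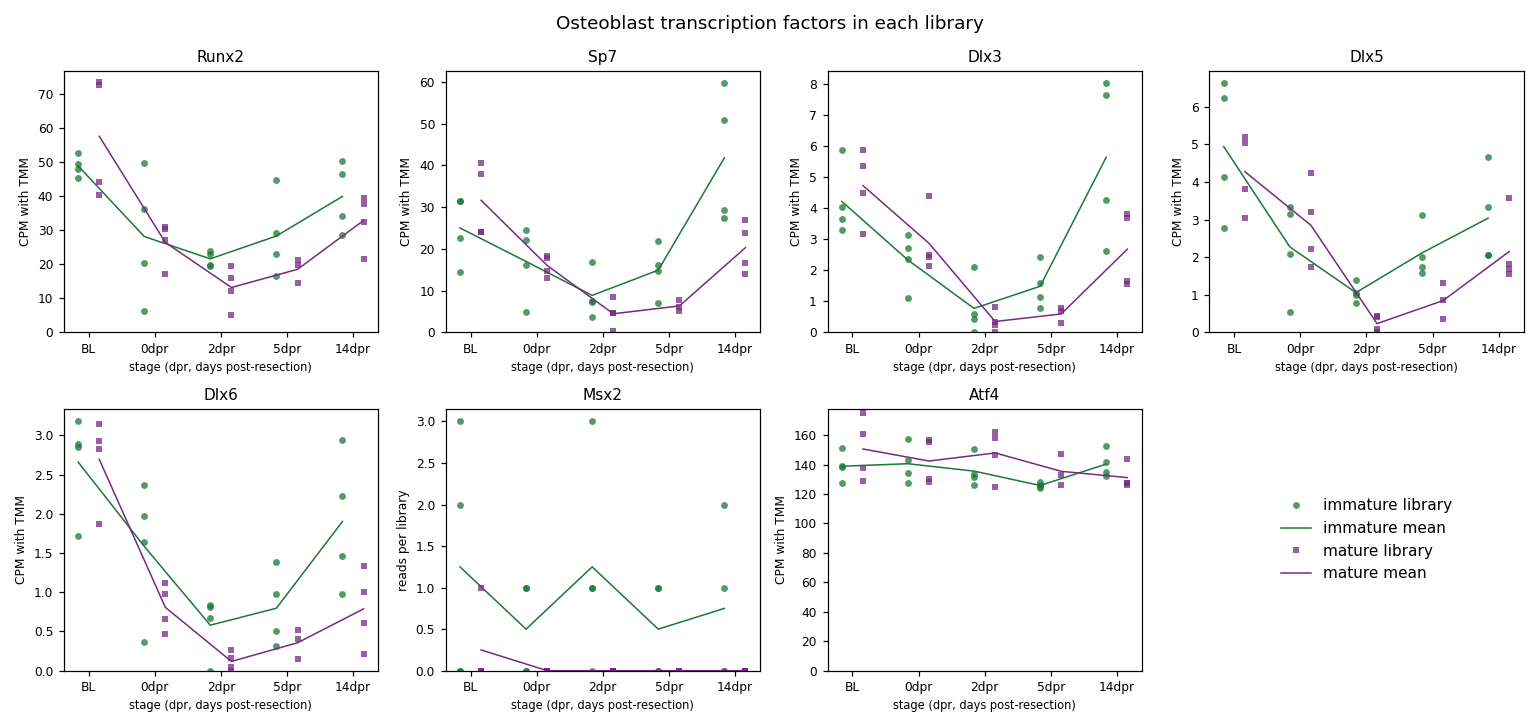
Level of each osteoblast transcription factor in every library (points) with the group mean (lines), by stage on the x axis and age by colour. The y axis is CPM with TMM scaling, except for Msx2, where it is reads per library. Runx2, Sp7, Dlx3, Dlx5 and Dlx6 have their lowest means at 2dpr in both ages, Atf4 lies between 124 and 175 CPM, and Msx2 never exceeds 3 reads.

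Runx2, the lineage-determining factor, was at 45.5, 52.8, 48.1 and 49.6 CPM in the immature BL libraries. The mature BL libraries held 72.6, 73.5, 40.4 and 44.2 CPM. The ages overlapped at BL, and the 2 highest libraries were mature. At 0dpr the immature libraries were spread over 49.9, 36.4, 6.28 and 20.3 CPM, the lowest being replicate 3, which stands apart. The mature 0dpr libraries were at 31.1, 30.4, 17.3 and 27.1 CPM, all below every mature BL library, as was so for 11.5% of all genes. At 2dpr the immature libraries held 19.5, 19.9, 23.1 and 24.0 CPM and the mature ones 16.0, 19.5, 5.11 and 12.2 CPM. The value of 5.11 CPM is from replicate 3, which stands apart, and it rests on 46 reads. At 5dpr the immature libraries were at 16.5, 29.2, 23.0 and 44.7 CPM and the mature ones at 19.8, 14.6 and 21.4 CPM. At 14dpr they were at 34.1, 50.5, 28.7 and 46.6 CPM and at 21.7, 32.4, 37.9 and 39.7 CPM. Neighbouring groups in the order of the Runx2 means, from mature BL at the top to mature 2dpr at the bottom, overlapped throughout.

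Sp7, which acts downstream of Runx2, was at 14.5, 31.4, 31.5 and 22.6 CPM in immature BL and at 37.8, 40.5, 24.2 and 24.1 CPM in mature BL. At 0dpr the values were 24.6, 22.2, 5.01 and 16.1 CPM in immature and 18.4, 13.1, 14.7 and 17.9 CPM in mature mice. As for Runx2, the low immature value came from replicate 3. At 2dpr the immature libraries held 7.54, 3.71, 7.37 and 16.8 CPM, and the mature ones 4.54, 4.68, 8.44 and 0.231 CPM. The lowest mature value, in replicate 4, is 5 reads in a library of 20936406 reads that held 264 reads of Runx2. At 5dpr the values were 6.98, 14.8, 16.0 and 21.9 CPM in immature and 5.18, 7.66 and 6.18 CPM in mature mice. At 14dpr the immature libraries reached 27.4, 50.8, 29.3 and 59.7 CPM, all above the mature ones at 14.1, 23.8, 26.9 and 16.5 CPM. This lack of overlap was shared by 2.77% of all genes. Sp7 was thus highest on average in immature 14dpr (41.8 ± 16.0 CPM, SD, n = 4) and not at baseline, unlike Runx2, but its range there overlapped that of mature BL (31.6 ± 8.74 CPM, SD, n = 4).

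The Sp7 level over the Runx2 level was followed as a ratio of CPM values within each library. It was 0.507 ± 0.150 (SD, n = 4) in immature BL and 0.554 ± 0.032 (SD, n = 4) in mature BL. At 14dpr it was 1.03 ± 0.195 (SD, n = 4) in immature mice, with a range of 0.804 to 1.28. In mature mice at 14dpr it was 0.627 ± 0.145 (SD, n = 4), with a range of 0.416 to 0.734. The ages did not overlap in this ratio at 14dpr, and no test was made of it. In mature 2dpr the ratio ran from 0.0189 to 1.65, the widest range of all groups, with replicate 4 at the low and replicate 3 at the high end.

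Dlx3, a homeodomain factor known in bone, tooth and hair, was at 3.66, 5.88, 3.29 and 4.02 CPM in immature BL and at 5.87, 5.36, 3.15 and 4.49 CPM in mature BL. At 0dpr it held 3.14, 2.71, 1.09 and 2.36 CPM in immature and 4.39, 2.12, 2.44 and 2.50 CPM in mature mice. The 2dpr values rested on few reads, at most 18 in a library: 0.419, 0, 0.586 and 2.09 CPM in immature and 0.826, 0.346, 0 and 0.231 CPM in mature mice. At 5dpr the 4 immature libraries, at 1.59, 1.13, 0.793 and 2.43 CPM, were all above the 3 mature ones, at 0.690, 0.305 and 0.791 CPM, the nearest pair being 0.793 and 0.791 CPM. Such a separation was seen for 4.05% of all genes. At 14dpr the immature libraries spread over 4.26, 8.01, 2.60 and 7.65 CPM and the mature ones over 1.57, 3.80, 3.68 and 1.66 CPM. The ages overlapped at 14dpr, and the 3 highest libraries were immature.

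Dlx5, a homeodomain factor upstream of Sp7 in osteoblast differentiation, was at 6.63, 4.12, 6.24 and 2.78 CPM in immature BL and at 5.03, 5.20, 3.06 and 3.81 CPM in mature BL. At 0dpr the values were 3.14, 3.33, 0.546 and 2.09 CPM in immature and 4.24, 1.75, 2.22 and 3.19 CPM in mature mice. At 2dpr the immature libraries held 10, 7, 12 and 12 reads (1.05, 0.788, 1.01 and 1.39 CPM). The mature libraries held 5, 5, 0 and 2 reads (0.413, 0.433, 0 and 0.0925 CPM), and the library with 2 reads of Dlx5 had 20936406 reads in all. The ages did not overlap at 2dpr, with every immature library above every mature one, as was so for 3.2% of all genes. At 5dpr the immature values of 1.74, 2.00, 1.59 and 3.13 CPM again lay above the mature values of 0.863, 1.32 and 0.359 CPM. The same was so for 4.05% of all genes. At 14dpr they were 2.07, 3.35, 2.06 and 4.67 CPM against 1.81, 1.68, 3.57 and 1.56 CPM, and the ages overlapped.

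Dlx6, the neighbour of Dlx5, was at 2.86, 2.89, 3.18 and 1.72 CPM in immature BL and at 2.83, 2.93, 1.87 and 3.14 CPM in mature BL. At 0dpr it was at 1.64, 1.97, 0.364 and 2.36 CPM in immature and at 0.471, 1.12, 0.665 and 0.972 CPM in mature mice. Every mature 0dpr library lay below every mature BL library, as was so for 11.5% of all genes. At 2dpr the immature libraries held 8, 0, 8 and 7 reads and the mature ones 2, 3, 0 and 1 reads. At 5dpr they held 2, 4, 21 and 16 reads against 6, 8 and 2 reads. At 14dpr the values were 1.46, 2.94, 0.976 and 2.23 CPM in immature and 0.603, 1.34, 1.00 and 0.208 CPM in mature mice. Every mature 14dpr library lay below every mature BL library, as was so for 18.4% of all genes.

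Msx2 gave 18 reads over all 39 libraries, with at most 3 in a library, while 3 reads in a library corresponded to 0.139 to 0.476 CPM. Of these reads, 17 were in immature libraries, where 11 of 20 libraries held at least 1, and 1 was in a mature library, where 1 of 19 did. Immature BL held 0, 0, 2 and 3 reads, and immature 2dpr held 1, 0, 1 and 3. The mature groups at 0, 2, 5 and 14dpr held 0 reads in each library. All libraries were at or below 3 reads, so no fold is given. When all genes with at least 1 read were fitted, Msx2 was not called at any stage, with an adjusted p of 0.386 for the ages at 2dpr and of 0.734 to 0.985 at the other stages. At single stages a difference between the ages was not detectable at this depth. With 2, 5 and 14dpr averaged, a contrast chosen after the data were seen, the adjusted p was 0.187.

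Atf4 was measured with 809 to 3173 reads in a library, the most precise counting of the members. Its group means lay between 126 ± 1.93 CPM in immature 5dpr (SD, n = 4) and 151 ± 21.3 CPM in mature BL (SD, n = 4), and every pair of neighbouring groups in their order overlapped. No step was called for it in either age. The largest fitted log2 fold change among the 8 steps was 0.16 ± 0.10 (SE), from 5dpr to 14dpr in immature mice (adjusted p = 0.568). There every 14dpr library (132 to 153 CPM) lay above every 5dpr library (124 to 128 CPM), as was so for 7.43% of all genes. At 14dpr against BL in mature mice Atf4 stood at -0.20 (adjusted p = 0.14), where DESeq2 called it lower (adjusted p = 0.0342). Atf4 protein is known to be controlled mainly by translation, which RNA levels do not show. Per kilobase of annotated exon, where genes can be compared, the BL means of immature mice were 58.9 CPM for Atf4, 7.36 for Sp7, 5.54 for Runx2, 2.18 for Dlx5, 1.62 for Dlx3, 1.12 for Dlx6 and 0.0392 for Msx2.

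The first day was compared with baseline next. In mature mice 2 members fell from BL to 0dpr. Runx2 fell by 1.13 ± 0.37 (log2, SE), from 57.7 to 26.5 CPM on average (adjusted p = 0.0241). Dlx6 fell by 1.72 ± 0.60 (log2, SE), from 2.69 to 0.808 CPM (adjusted p = 0.0352). Of all genes, 10.6% fell at this step in mature mice. Neither call held in all fits that left out 1 library: Runx2 was lost without mature BL replicate 1, mature BL replicate 2 or mature 0dpr replicate 3 (adjusted p of 0.0778, 0.0853 and 0.107). Dlx6 was lost without mature BL replicate 1, 2 or 4 or mature 0dpr replicate 1 or 3 (adjusted p of 0.0511 to 0.110). In immature mice no member was called at this step, where 10.6% of all genes were called, and the 5 log2 fold changes other than that of Atf4 ran from -1.13 (Dlx5, adjusted p = 0.116) to -0.57 (Sp7, adjusted p = 0.488). Without replicate 3 of immature 0dpr they ran from -0.75 (Dlx5, adjusted p = 0.394) to -0.22 (Sp7, adjusted p = 0.863), and Runx2 stood at -0.43 in place of -0.81. On all libraries 2 members (Runx2 and Dlx5) had an unadjusted p under 0.05 in edgeR, as had 5490 of the 21204 genes, and DESeq2 called 0. The summed skeletal muscle markers had a median of 102706 CPM at BL and 157845 CPM at 0dpr in immature mice, and of 68618 and 159487 CPM in mature mice. With a skeletal muscle score as a covariate neither mature value passed the threshold. Dlx6 then stood at -1.50 (adjusted p = 0.446), close to its size without the covariate, and Runx2 at -0.28 (adjusted p = 0.856). The muscle sums did not overlap between BL and 0dpr in either age, so these covariate values are extrapolations.

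From 0dpr to 2dpr, 5 members fell in mature mice, where 24.9% of all genes fell. Dlx5 fell by 3.55 ± 0.58 (log2, SE, adjusted p = 3.58e-06), from 2.85 ± 1.10 to 0.235 ± 0.221 CPM (SD, n = 4 each). Dlx3 fell by 2.96 ± 0.64 (log2, SE, adjusted p = 0.000242). Dlx6 fell by 2.70 ± 0.75 (log2, SE, adjusted p = 0.00317), and since mature 2dpr held 6 Dlx6 reads in all, the ratio of summed reads was 7.39 with a 95% exact interval of 2.96 to 22.0, which covers counting error only. Sp7 fell by 1.91 ± 0.52 (log2, SE, adjusted p = 0.00269) and Runx2 by 0.99 ± 0.37 (log2, SE, adjusted p = 0.0278). Sp7, Dlx3, Dlx5 and Dlx6 did not overlap between the mature 0dpr and 2dpr libraries, and Runx2 did, where 19.9% of all genes did not overlap in this direction.

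The falls of Sp7, Dlx3, Dlx5 and Dlx6 in mature mice remained called in all 8 fits that left out a library of the stages compared. Without replicate 3 of mature 2dpr the log2 changes were -2.43 for Sp7, -2.64 for Dlx3, -3.25 for Dlx5 and -2.43 for Dlx6. Without replicate 4 of that group, whose Sp7 level was the lowest, Sp7 changed by -1.45 (adjusted p = 0.0075). Runx2 was lost in 5 of those 8 fits: without mature 0dpr replicate 1, 2 or 4 or mature 2dpr replicate 3 or 4 (adjusted p of 0.0521 to 0.105). The skeletal muscle sums fell to medians of 24880 CPM in immature and 20161 CPM in mature mice at 2dpr, with all 20 markers called lower in both ages, and the macrophage sums had medians of 717 and 658 CPM at 0dpr against 3946 and 4410 CPM at 2dpr. With the skeletal muscle score as a covariate the falls of Dlx5 (-4.89, adjusted p = 0.0111) and Runx2 (-2.87, adjusted p = 0.0201) stayed called, and Sp7 (-3.29), Dlx3 (-3.80) and Dlx6 (-3.21) were larger in size than without it but did not pass the test (adjusted p of 0.111, 0.1 and 0.219). The mature muscle sums ran from 129393 to 259740 CPM at 0dpr and from 15944 to 31526 CPM at 2dpr. They did not overlap in either age, so this covariate fit extrapolates and cannot separate the step from the score. Over 8 alternative ways of fitting, this one among them, the mature fall was called in 8 for Dlx5. It was called in 7 for Dlx3 and for Runx2, and in 6 for Sp7 and for Dlx6.

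In immature mice the same step gave 1 called member, Dlx3, which fell by 1.58 ± 0.61 (log2, SE, adjusted p = 0.0352), where 22.2% of all genes fell. This call was lost without immature 0dpr replicate 1 or 2 or immature 2dpr replicate 1, 2 or 3 (adjusted p of 0.0729 to 0.110), with the libraries of this step alone (-1.54, adjusted p = 0.153) and with the muscle covariate (-2.23, adjusted p = 0.257). Leaving out 1 library of the step moved the value between -1.18, without immature 2dpr replicate 2, and -2.67 (adjusted p = 0.00159), without replicate 4, which held 18 Dlx3 reads against 4, 0 and 7 in the others. The others did not pass the test: Dlx6 stood at -1.40 (adjusted p = 0.0642), Dlx5 at -1.08 (adjusted p = 0.0819), Sp7 at -0.93 (adjusted p = 0.128) and Runx2 at -0.37 (adjusted p = 0.437). The library with low osteoblast markers lies in the 0dpr group of this comparison. Without it Sp7 (-1.28), Dlx3 (-1.86), Dlx5 (-1.45) and Dlx6 (-1.78) were called, with adjusted p of 0.0368, 0.0182, 0.0159 and 0.0185. Without both libraries that stand apart Runx2 was called too (-0.74, adjusted p = 0.0337). The number of called members at this step in immature mice thus went from 1 to 4 when 1 library was left out, and DESeq2 called 3 on all libraries (Dlx3, Dlx5 and Dlx6). The shares of all genes called in these other fits are not given here, so the added calls are not read as particular to the members. The difference of this step between the ages was not tested on its own.

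From 2dpr to 5dpr, Dlx5 was the member that rose, by 1.85 ± 0.61 (log2, SE) in mature mice (adjusted p = 0.0376), where 8.16% of all genes rose. It went from 0.235 ± 0.221 (SD, n = 4) to 0.847 ± 0.480 CPM (SD, n = 3). The call was lost without mature 2dpr replicate 3 or 4 or mature 5dpr replicate 1 or 3, with adjusted p of 0.0768 to 0.243. Over 8 alternative ways of fitting, this rise was called in 5. In immature mice Dlx5 was higher at 5dpr by 0.99 ± 0.50 (log2, SE, adjusted p = 0.261), and no member was called or had an unadjusted p under 0.05, where 8.05% of all genes were called. DESeq2 called 0 as well.

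From 5dpr to 14dpr no member was called in either age, while 3.18% of all genes were called in immature and 4.18% in mature mice. Dlx3 and Sp7 came nearest. Dlx3 was higher at 14dpr by 1.93 ± 0.57 (log2, SE) in immature mice and by 2.18 ± 0.66 in mature mice (adjusted p of 0.0504 and 0.0537). Sp7 was higher by 1.47 ± 0.48 and by 1.67 ± 0.55 (adjusted p of 0.0914 and 0.0775). At 14dpr every library of a given age lay above every 5dpr library of that age for both genes, as was so for 7.43% of all genes in immature and 11% in mature mice. DESeq2 called both genes in both ages (adjusted p of 0.00466 to 0.0476). At an unadjusted p under 0.05 edgeR counted 2 members in immature and 4 in mature mice, beside 2965 and 3905 of the 21204 genes. Libraries outside this comparison enter it through the shared estimate of the spread. Without replicate 3 of mature 2dpr, Dlx3 was called in both ages (adjusted p of 0.0201 and 0.0235) and Sp7 in mature mice (adjusted p = 0.0424), and likewise without replicate 3 of immature 0dpr (adjusted p of 0.0382, 0.0417 and 0.0462). The shares of all genes called in these fits and with DESeq2 are not given here. Summed osteoblast markers had medians of 27161 and 39493 CPM at these stages in immature mice and of 16858 and 33662 CPM in mature mice.

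**Figure D2:**
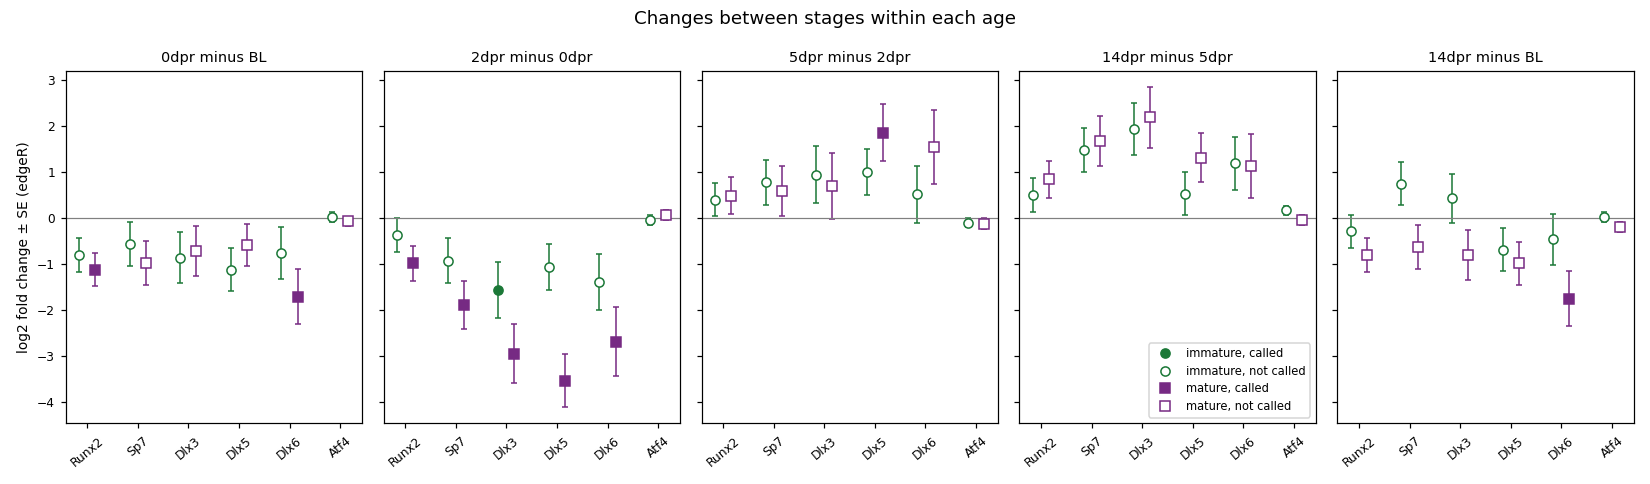
Fitted log2 fold change with its SE for 6 members between successive stages and between 14dpr and BL (y axis), by gene on the x axis and age by colour. Filled symbols passed the test at 0.05. The 5 filled mature symbols at 2dpr minus 0dpr lie between -0.99 and -3.55, and Atf4 lies between -0.20 and 0.16 in all 5 panels.

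Whether the levels at 14dpr had returned to baseline was asked with the 14dpr against BL comparison. Dlx6 was lower at 14dpr in mature mice by 1.76 ± 0.59 on the log2 scale (SE), at 0.788 ± 0.491 against 2.69 ± 0.563 CPM (SD, n = 4 each, adjusted p = 0.0191), where 16.4% of all genes were lower. It was not called without mature 14dpr replicate 1 or 4 (adjusted p of 0.0560 and 0.0781). In immature mice Dlx6 was at 1.90 ± 0.863 against 2.66 ± 0.642 CPM (SD, n = 4 each), a log2 difference of -0.47 (adjusted p = 0.565). No member was called in immature mice, where 31.4% of all genes were, and Sp7 and Dlx3 were on average higher than at BL there (log2 0.74 and 0.42, adjusted p of 0.25 and 0.599). Both were slightly below BL with the muscle covariate (-0.14 each). No member there had an unadjusted p under 0.05 in edgeR, where 8512 of the 21204 genes did, and DESeq2 called 0. In mature mice the 5 members that follow the course were all lower on average than at BL, from -0.64 for Sp7 (adjusted p = 0.333) to -1.76 for Dlx6. Tested on the libraries of this comparison alone, 4 members were lower in mature mice, namely Runx2 (adjusted p = 0.0129), Sp7 (0.0424), Dlx5 (0.0295) and Dlx6 (0.00763), and Sp7 was higher in immature mice (log2 0.76, adjusted p = 0.0282). The shares of all genes called in these smaller fits are not given here, so the added calls are not read as particular to the members. Markers of other cell types moved with this comparison. In mature mice 16 of 20 skeletal muscle, 10 of 10 neutrophil and 9 of 9 tested erythroid markers were lower at 14dpr, and 10 of 10 macrophage and 10 of 11 tested chondrocyte markers were higher. In immature mice 20, 9 and 9 were lower and 10 and 10 higher in the same order. In mature mice the muscle sums ran from 47844 to 92469 CPM at BL and from 21581 to 38610 CPM at 14dpr, and the erythroid sums from 17172 to 24314 and from 503 to 3560 CPM. Their part in the Dlx6 difference was not tested, except that with the muscle score as a covariate it stood at -1.93 (adjusted p = 0.0499). Because the muscle sums did not overlap between BL and 14dpr in either age, the covariate values of this comparison are extrapolations.

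The ages were then compared at each stage. No member was called at any stage, that is, 0 of the 30 tests that could be made on 6 members, against 0.585% of all genes called at BL, 0.726% at 0dpr, 0.627% at 2dpr, 0% at 5dpr and 0.00943% at 14dpr. DESeq2 called 1 of these tests, Dlx5 at 2dpr, and 6 of them had an unadjusted p under 0.05 in edgeR. Of the 21204 genes, 2482, 2278, 2812, 1081 and 968 had such a p at BL, 0, 2, 5 and 14dpr. At BL the fitted log2 differences, immature minus mature, lay between -0.34 (Sp7) and 0.20 (Dlx5). At 0dpr they lay between -0.33 (Dlx5) and 0.93 (Dlx6, adjusted p = 0.633), and without replicate 3 of immature 0dpr Dlx5 stood at 0.01 and Dlx6 at 1.29 (adjusted p = 0.412). From 2dpr on, Runx2, Sp7, Dlx3, Dlx5 and Dlx6 were on average higher in immature mice at each of the 3 stages, while Atf4 differed by at most 0.13.

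At 2dpr, Dlx5 had a log2 difference of 2.14 ± 0.59 (SE, unadjusted p = 0.000958, adjusted p = 0.0798), and all 4 immature libraries were above all 4 mature ones, as was so for 3.2% of all genes. Dlx6 had a difference of 2.23 ± 0.76 (SE, adjusted p = 0.174). The ratio of summed reads between immature and mature mice at 2dpr was 4.76 for Dlx5 (41 and 12 reads, 95% exact interval of 2.45 to 9.94) and 5.34 for Dlx6 (23 and 6 reads, 2.11 to 16.0), both intervals covering counting error only. Dlx3, Sp7 and Runx2 had differences of 1.07 ± 0.68, 1.05 ± 0.52 and 0.71 ± 0.37 (SE, adjusted p of 0.517, 0.381 and 0.418). Without replicate 3 of mature 2dpr, Dlx5 stood at 1.84 (adjusted p = 0.199) and Sp7 at 1.58 (adjusted p = 0.281), while Dlx6, Dlx3 and Runx2 stood at 1.96, 0.75 and 0.45 (adjusted p of 0.367, 0.844 and 0.816). Without replicate 4 of that group Sp7 stood at 0.60 (adjusted p = 0.493). Dlx5 passed the threshold without mature 2dpr replicate 2 (2.57, adjusted p = 0.0458), without immature 0dpr replicate 3 (adjusted p = 0.0441) and with the skeletal muscle score as a covariate (2.34, adjusted p = 0.0474).

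At 5dpr the differences were 1.32 ± 0.67 for Dlx3, 1.28 ± 0.54 for Dlx5, 1.24 ± 0.54 for Sp7, 1.21 ± 0.68 for Dlx6 and 0.62 ± 0.40 for Runx2 (log2, SE), with adjusted p of 0.885 or more. The libraries of the ages did not overlap for Dlx3 and Dlx5, which was so in the same direction for 4.05% of all genes. At 14dpr the differences were 1.27 ± 0.60 for Dlx6, 1.07 ± 0.54 for Dlx3, 1.04 ± 0.48 for Sp7, 0.50 ± 0.47 for Dlx5 and 0.28 ± 0.36 for Runx2 (log2, SE), each with adjusted p = 1. Sp7 was the member without overlap at 14dpr, as were 2.77% of all genes. The test of whether the course differs between the ages called 0 members, against 0.184% of all genes. DESeq2 called 0 as well. Dlx5 was the member with an unadjusted p under 0.05 in edgeR's test (adjusted p = 0.428), as had 2147 of the 21204 genes.

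**Figure D3:**
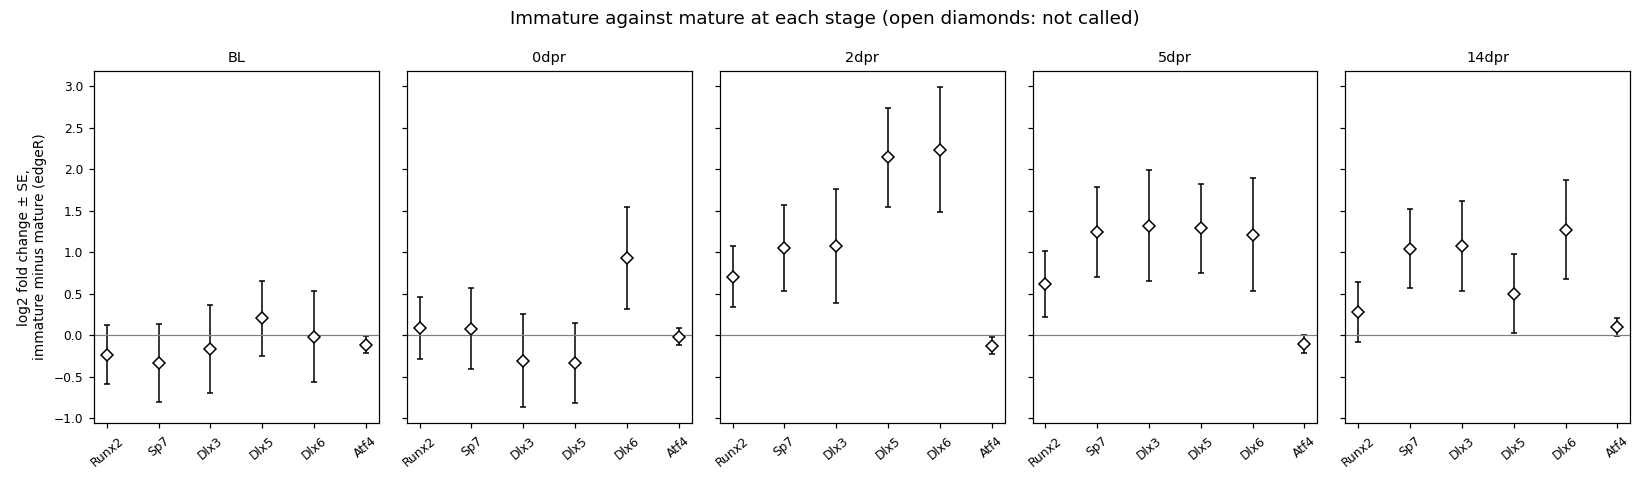
Fitted log2 difference between immature and mature mice with its SE for 6 members (y axis) at each stage, by gene on the x axis. Open diamonds did not pass the test at 0.05, and all 30 are open. Runx2, Sp7, Dlx3, Dlx5 and Dlx6 lie above 0 at 2, 5 and 14dpr, and the highest values are those of Dlx5 and Dlx6 at 2dpr (2.14 and 2.23).

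Because the differences at 2, 5 and 14dpr had the same sign, their average was tested as a contrast chosen after the data were seen. Dlx5 was higher in immature mice by 1.31 ± 0.31 (log2, SE, adjusted p = 0.038), where 0.373% of all genes were higher. With the replicate number as a block the value was 1.23 and the call was lost (adjusted p = 0.102). Dlx6 stood at 1.57 ± 0.39 (adjusted p = 0.0536), Sp7 at 1.11 ± 0.30 (adjusted p = 0.0782), Dlx3 at 1.15 ± 0.37 (adjusted p = 0.172) and Runx2 at 0.54 ± 0.22 (adjusted p = 0.375). The Dlx5 call held in 11 of the 23 fits that left out a library of these stages, and the adjusted p ran from 0.0196 to 0.0916 over them. It was lost without immature 2dpr replicate 1 or 4, immature 5dpr replicate 3 or 5, immature 14dpr replicate 2 or 4, mature 2dpr replicate 4, mature 5dpr replicate 1 or 4, or mature 14dpr replicate 1, 2 or 4. Sp7 (1.31, adjusted p = 0.00753), Dlx5 (1.23, adjusted p = 0.00976) and Dlx6 (1.51, adjusted p = 0.0232) were called without both libraries that stand apart. Leaving these libraries out was also chosen after the data were seen, and the share of all genes called in that fit is not given here. The osteoblast marker sums were also higher in immature mice at these stages on average, with ranges of 9388 to 15878 against 3272 to 6066 CPM at 2dpr, 14660 to 30272 against 16455 to 18606 CPM at 5dpr, and 33436 to 54082 against 23698 to 41365 CPM at 14dpr. Their part in the member differences was not tested. These sums are weighted towards collagen: in mature 5dpr Col1a1 averaged 8439 CPM, and the sum had a median of 16858 CPM. Ratios to them are therefore not levels per osteoblast. Per 10000 CPM of the summed osteoblast markers, Runx2 was at 18.8 ± 3.40 in immature and 28.6 ± 11.1 in mature 2dpr, Sp7 at 7.03 ± 2.74 and 9.55 ± 8.20, Dlx3 at 0.560 ± 0.556 and 0.741 ± 0.700, Dlx5 at 0.895 ± 0.0516 and 0.460 ± 0.389, and Dlx6 at 0.468 ± 0.324 and 0.227 ± 0.193 (SD, n = 4 each). On this scale Runx2, Sp7 and Dlx3 were thus on average lower, and Dlx5 and Dlx6 higher, in immature 2dpr. At 5dpr the means were 11.3 in immature and 10.8 in mature mice for Runx2, 5.83 and 3.65 for Sp7, 0.649 and 0.351 for Dlx3, 0.888 and 0.480 for Dlx5, and 0.304 and 0.204 for Dlx6. At 14dpr they were 9.64 and 10.7 for Runx2, 9.80 and 6.37 for Sp7, 1.32 and 0.832 for Dlx3, 0.709 and 0.653 for Dlx5, and 0.452 and 0.237 for Dlx6. No test was made of these ratios.

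**Figure D4:**
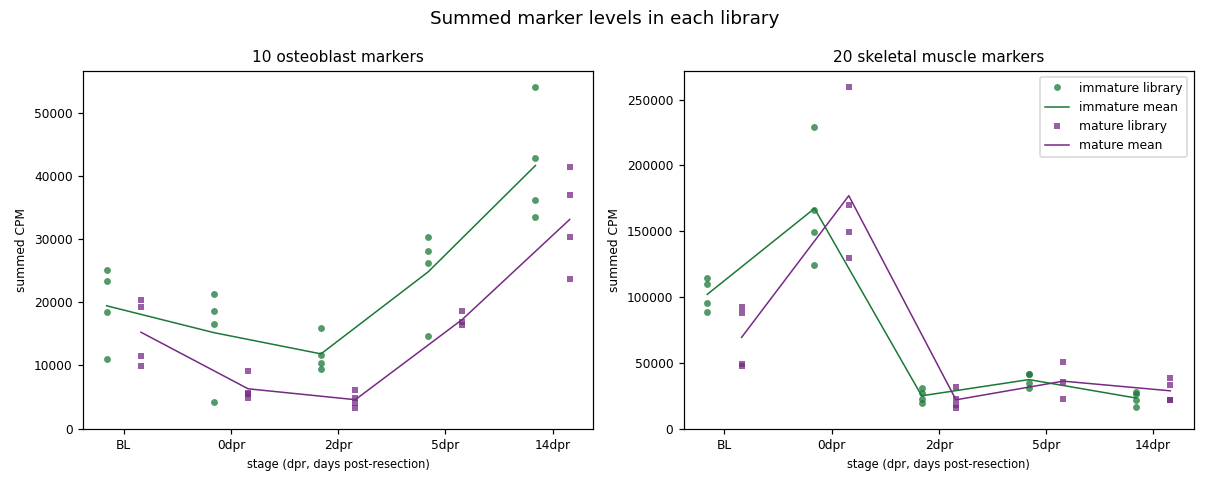
Summed CPM of 10 osteoblast markers (left) and 20 skeletal muscle markers (right) in each library (points) with group means (lines), by stage and age. The osteoblast sum in mature mice is lowest at 2dpr (3272 to 6066 CPM) and the muscle sum falls in both ages from 0dpr to 2dpr. The osteoblast sum includes Col1a1, which averaged 8439 CPM in mature 5dpr, and is weighted towards collagen.

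The antisense neighbour Dlx6os1, a long noncoding RNA gene of the Dlx5 and Dlx6 locus, was followed because the strand setting of the counting is not given in the sources used here. At 2dpr it held 2, 3, 4 and 10 reads in immature and 0, 0, 0 and 1 reads in mature mice. Its level was above that of mature mice with adjusted p = 0.0284, where 0.627% of all genes were called between the ages. The ratio of summed reads was 26.5 with a 95% exact interval of 4.20 to 1.10e+03 for counting error. The mature side of this call rests on 1 read. Replicate 3, which stands apart, is among the mature libraries with 0 reads, and the value without it is not given here. In the average over 2, 5 and 14dpr Dlx6os1 was higher in immature mice by 2.36 ± 0.44 (log2, SE, adjusted p = 0.00512), where 0.373% of all genes were higher. Supt3, the neighbour of Runx2, was not called between the ages at any stage (adjusted p of 0.274 to 1). The opposite-strand gene Dlx6os2, which overlaps 104 exon bases of Dlx6, had 11 reads over all libraries.

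Partners of Runx2 and other bone transcription factors were taken as a list of 43 genes, of which 41 were tested and 2, Dlx2 and Dlx4, lay outside the filtered table with 15 and 77 reads in all. The course was called for 30 of the 41 in immature and 35 in mature mice, beside 54.3% and 63% of all genes. From 0dpr to 2dpr, 17 fell and 4 rose in immature mice, and 17 fell and 8 rose in mature mice, with median log2 changes of -0.32 and -0.45 against -0.04 and -0.05 over all genes. Of all genes, 22.2% fell in immature and 24.9% in mature mice, and the shares that rose are not given here. Cbfb, the subunit that Runx proteins need to bind DNA stably, fell in immature mice (-0.46, adjusted p = 0.0285) and stood at -0.15 in mature mice (adjusted p = 0.509). Runx1, the blood-forming relative of Runx2, rose in both, by 1.35 and 1.56 (adjusted p of 7.1e-07 and 3.91e-08).

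Sox9, the cartilage lineage factor, rose at this step in mature mice (1.30, adjusted p = 0.0309), stood at 1.01 in immature mice (adjusted p = 0.0945), and was higher at 14dpr than at BL in both (1.50 and 2.59, adjusted p of 0.0186 and 8.85e-05). Msx1, the paralog of Msx2, was measurable where Msx2 was not, with group means of 1.22 to 3.32 CPM, and its course was called in mature mice (adjusted p = 0.0448) but not in immature mice (adjusted p = 0.18). Twist1, which holds Runx2 in check, was called over the course in immature mice (adjusted p = 0.0137) and Twist2 in mature mice (adjusted p = 0.0274). Lef1, a mediator of Wnt signals, was the list member called in the age average over 2, 5 and 14dpr, and it was higher in immature mice by 2.01 (log2, adjusted p = 0.00723). None of the 41 was called between the ages at a single stage.

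Genes of the bone matrix and of mature osteoblasts and osteocytes, many of them known targets of Runx2 and Sp7, were taken as a list of 26, all tested. The course was called for 24 in immature and 23 in mature mice, beside 54.3% and 63% of all genes. At 14dpr against BL, 15 were higher and 0 lower in immature mice, while 6 were higher and 3 lower in mature mice, with medians of 1.17 and -0.10 (log2) against -0.04 and -0.03 over all genes. Of all genes, 31.4% were called in either direction in immature mice and 16.4% were lower in mature mice. Bglap (osteocalcin), a late osteoblast gene, was at 375.5 ± 157.1 CPM in immature BL, 57.97 ± 54.83 in immature 2dpr and 252.7 ± 152.2 in immature 14dpr (SD, n = 4 each). In mature mice it was at 317.8 ± 79.3, 8.96 ± 9.41 and 74.3 ± 28.3 CPM, and it was lower at 14dpr than at BL (-2.10, adjusted p = 0.0127). Bglap and Bglap2 are near-identical copies, so their separate values are uncertain. Alpl, the alkaline phosphatase of mineralizing cells, fell by 1.57 and by 1.86 from 0dpr to 2dpr (adjusted p of 0.000547 and 6.48e-05), and rose from 5dpr to 14dpr in both ages (1.86 and 1.97, adjusted p of 0.00128 and 0.00243).

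Col1a1, the main collagen chain of bone, was higher at 14dpr than at BL in both ages (1.06 and 1.26, adjusted p of 0.0376 and 0.0121), a direction that Runx2 did not share. Ibsp (bone sialoprotein) and Dmp1, an osteocyte matrix protein, were higher at 14dpr than at BL in immature mice (1.12 and 1.46, adjusted p of 0.0356 and 0.0167) and stood at 0.48 and -0.55 in mature mice (adjusted p of 0.41 and 0.414). At single stages, Col1a2 and Sparc exceeded their mature levels in immature 0dpr (1.25 and 1.31, adjusted p of 0.0371 and 0.000297) and Col1a2 in immature 2dpr (1.27, adjusted p = 0.0401). In the average over 2, 5 and 14dpr, 9 of the 26 were higher in immature mice and 0 lower, where 0.373% of all genes were higher. The 6 with the smallest adjusted p were Dmp1 (1.91, adjusted p = 0.00122), the Wnt inhibitor Dkk1 (2.03, 0.0057), Bglap (2.02, 0.00992), Mepe (2.18, 0.0115), Bglap2 (1.88, 0.0121) and Alpl (1.00, 0.0145).

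Targets of Atf4, amino acid synthesis and transport genes and stress response genes, were a list of 27, all tested. The course was called for 20 in immature and 19 in mature mice, beside 54.3% and 63% of all genes. Ddit3, a stress-induced factor, and Trib3, a pseudokinase, were not called over the course in either age (adjusted p of 0.0788 and 0.155 for Ddit3, 0.613 and 0.813 for Trib3). Asns, the asparagine synthetase, was below its mature level in immature BL (-0.87, adjusted p = 0.0226), at 33.5 ± 5.07 against 61.1 ± 12.6 CPM (SD, n = 4 each). Slc3a2, an amino acid transporter subunit, was below it too (-0.55, adjusted p = 0.0352), and Atf3, an immediate stress factor, was above its mature level in immature 0dpr (1.55, adjusted p = 0.0273). None of the 27 was called between the ages at 2, 5 or 14dpr.

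Across the 10 group means of log2 CPM, the members that follow the course were alike, with Pearson's r between 0.893 (Runx2 and Dlx3) and 0.967 (Sp7 and Dlx3). Within groups, over the deviations of the 39 libraries from their group means, r was lower, between 0.382 (Runx2 and Sp7) and 0.700 (Runx2 and Dlx5). Atf4 had r of -0.0386 to 0.185 with the others. Among 16147 genes with a mean of at least 1 CPM, those most like Sp7 over the 10 group means were Pth1r, the parathyroid hormone receptor (0.977), Col11a2 (0.976) and Alpl (0.968). Those most like Runx2 were Tnfsf13b, Rab11fip4 and Card6 (0.976, 0.967 and 0.966). Those most like Dlx3 were Tmie, Cadm1 and Alpl (0.982, 0.980 and 0.980), most like Dlx5 were Dlx6os1, Rad52 and Ankrd35 (0.981, 0.975 and 0.966), and most like Dlx6 were Col13a1, Lrrc1 and Gm15265 (0.990, 0.981 and 0.980). For Atf4 the nearest genes reached lower values, Ipmk at 0.862, Zscan22 at 0.848 and Atg16l1 at 0.848. These r values describe 10 points that share library composition between genes, and no test was made of them.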

How the data were processed

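Bulk RNAseq of 40 labelled samples was used, of which 39 were analysed. The authors mapped reads to GRCm38 with STAR 2.5.2a and deposited raw read counts per gene, whole numbers without normalization, for all genes and for a filtered set. The deposited normalized signal is CPM with TMM factors made by the authors, and it equals the value computed from the counts to within a relative difference of 5e-15. The library kit was stranded, and the strand setting of the counting is not given in the sources used here.

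Members and gene lists were chosen with earlier results of these data known. Groups came from the labels. The counts of the filtered table were fitted with edgeR 4.0.16 (R 4.3.3), quasi-likelihood, TMM, 1 coefficient per group over all libraries, Benjamini-Hochberg over 21204 genes, tested on simulated data beforehand. All 7 members are named, with partners and targets by a fixed rule, genes called in an age contrast (the 6 smallest adjusted p per list), and the 3 genes most like each member by r of mean log2 CPM (prior count 2). 1 gene of the rule is not reported here. Alternatives were DESeq2 1.42.0, RLE size factors, other filters, a replicate block, a skeletal muscle covariate, the compared libraries alone, and leaving out each library. No label says whether replicates came from separate mice, so p-values measure the spread between libraries. Every replicate pair differed by more than sampling noise. Same-numbered libraries deviated together in 1 of 15 comparisons, the ages at 0dpr (r of 0.109 to 0.207), and the replicate block changed no member call there. The depth of 6057756 to 21537070 reads leaves Dlx6 and Msx2 with few reads, and intervals cover counting error only.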

Additional observations from a re-analysis of the deposited data

Results flagged for a closer look

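Of 54 groups of 4 libraries tested over 6 members, 2 held a library far from the others by Dixon's ratio of the gap to the range on the log2 CPM scale (above its 95% critical value), and chance gives about 1 in 20 groups. Dlx6 in immature 2dpr replicate 2 was the lowest of its group with 0 reads, against 8, 8 and 7 reads in the others (ratio 0.894). Atf4 in mature 14dpr replicate 1 was the highest of its group at 144 CPM, against 126 to 127 CPM in the others (ratio 0.922).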

How the results depend on the processing

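The course calls (5 members in each age) and the absence of a called interaction held with little change (4 to 5 course members in immature mice), and no alternative reversed the direction of a called member value; uncalled values near 0 changed sign in some. The number of called member steps in immature mice, 1, was 2 with RLE size factors, 5 with DESeq2, 3 with filterByExpr on the full table, 0 with the skeletal muscle score as a covariate, 2 with only the libraries compared and 7 without both libraries that stand apart (an alternative chosen after seeing the data), and it ran from 0 to 5 over the fits that left out 1 library. In mature mice the number was 8, and 3 with the muscle covariate. It ran from 6 to 10 over the fits that left out 1 library and from 3 to 10 over 8 alternative ways of fitting. For 14dpr against BL, 1 call became 3 with DESeq2, 2 with the muscle covariate, 5 with only the libraries compared and 3 without both libraries, and ran from 0 to 2 over the left-out fits. For the ages, 0 became 1 with DESeq2 and with the muscle covariate, and 0 to 1 over the left-out fits. The causes were not tested, and the shares of all genes called under these alternatives are not given here. With the replicate block the Dlx5 difference between the ages averaged over 2, 5 and 14dpr was 1.23 (adjusted p = 0.102), and the Dlx3 fall in immature mice stood at -1.53 (adjusted p = 0.0487); the block changed no other member call. Outside the ages at 0dpr the numbers do not pair the libraries (mean r of -0.108 to 0.0181). The Dlx genes rest on under 100 reads in a library, which limits their precision.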
